A study of Glycine max with 20 samples.

Results

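Ribosome footprints of early cotyledons were compared with those of early seed coats of soybean (Glycine max, cultivar Williams). The members are the primary Glyma models, the first transcript of each gene, with at least 10 counts summed over 4 footprint (FP) libraries, and these were 23979 of 55912 primary models. Of the 31933 models under this minimum, 16147 had no count in any of the 4 libraries. The libraries were 2 of cotyledons (C25) and 2 of seed coats (SC25), among 20 libraries in the series. Both tissues came from greenhouse plants without a transgene or treatment and from seeds of 25 to 50 mg fresh weight, dissected by hand and frozen. FP libraries hold RNA fragments that ribosomes protected from micrococcal nuclease. Control (CT) libraries hold fragmented total RNA of the same tissue powder. Each powder was ground from several seeds, and no label says whether replicates came from separate plants, so p-values measure only the spread between these libraries.

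The cotyledons are the storage organ of the soybean seed. Their cells make glycinins and conglycinins, which are the main storage globulins, together with protease inhibitors, lectin and the oleosins that coat oil bodies. The seed coat is maternal tissue around the embryo. It passes sugars and amino acids to the growing embryo, makes flavonoids, and holds walls rich in peroxidase and structural proteins.

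The totals over all models were 16244455 and 19256713 counts in C25 FP replicates 1 and 2, and 9098942 and 7205928 in SC25 FP replicates 1 and 2. The 10 most abundant models held 65.1 to 83.8% of the counts of a library, with 95% Wilson intervals at most 0.0619 percentage points wide. Levels are given as RPKM, reads scaled to the length of the cDNA model and to the total count of the library. With 3 counts as the floor of detection, the lowest level that could be told from 0 for a cDNA of 1 kb was 0.185 and 0.156 RPKM in C25 FP replicates 1 and 2 and 0.330 and 0.416 RPKM in SC25 FP replicates 1 and 2. These floors and all intervals cover counting error only, because the reads carried no molecular identifiers. Differences are log2 fold changes of SC25 over C25 after TMM scaling, which sets the libraries to a common level by the bulk of the models. The median log2 fold change of all tested models was -0.02 after TMM and 1.04 on library totals, so a ratio of the printed RPKMs is shifted toward SC25 by the distance between these medians.

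The C25 FP replicates were not alike. A seed coat list was taken from libraries outside this comparison, namely the CT libraries of 100 to 200 mg seeds. It held the 323 models with at least 5 RPKM in both seed coat CT libraries (SC100) and at least 20 times the level of either cotyledon CT library (C100), which was set to at least 0.1 RPKM. Their median level was 0 RPKM in C25 FP replicate 1 and 1.12 RPKM in C25 FP replicate 2, beside 10.9 and 4.69 RPKM in SC25 FP replicates 1 and 2. Relative to the mean SC25 FP level of each model, the list median was 0 in replicate 1 and 0.138 in replicate 2, and the latter was 0.243 without SC25 FP replicate 1. No count was found for 194 of the 323 models in replicate 1 and for 9 in replicate 2. The list took 0.00374% of the counts of C25 FP replicate 1 (95% Wilson interval 0.00346 to 0.00405%) and 0.117% of those of replicate 2 (0.116 to 0.119%). The CT libraries of the same cotyledons had medians of 0.0718 and 0.119 RPKM, and the medians of C100 FP replicate 1 and C300 FP replicate 1, from older cotyledons, were 0. The seed coat signal was therefore a property of 1 C25 FP library among these 6 cotyledon libraries, and each comparison below is given with that library shown apart.

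The list models kept a near-constant ratio between C25 FP replicate 2 and SC25 FP replicate 1. Over the 193 list models with at least 20 counts in both, the median ratio of their RPKMs was 0.0993, and the middle 50% of models lay between 0.0916 and 0.111. After TMM the median was 0.323, with the same relative spread. Over 190 models with at least 20 counts in all 3 libraries, the SD of the log2 ratio was 0.278 against SC25 FP replicate 1 and 0.513 against SC25 FP replicate 2. The SD between the SC25 FP replicates themselves was 0.460. Against SC100 FP replicates 1 and 2 it was 0.871 and 1.03. In the pattern of these models, C25 FP replicate 2 thus lay nearer to SC25 FP replicate 1 than the SC25 FP replicates lay to each other. How this came about was not tested.

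**Figure D1:**
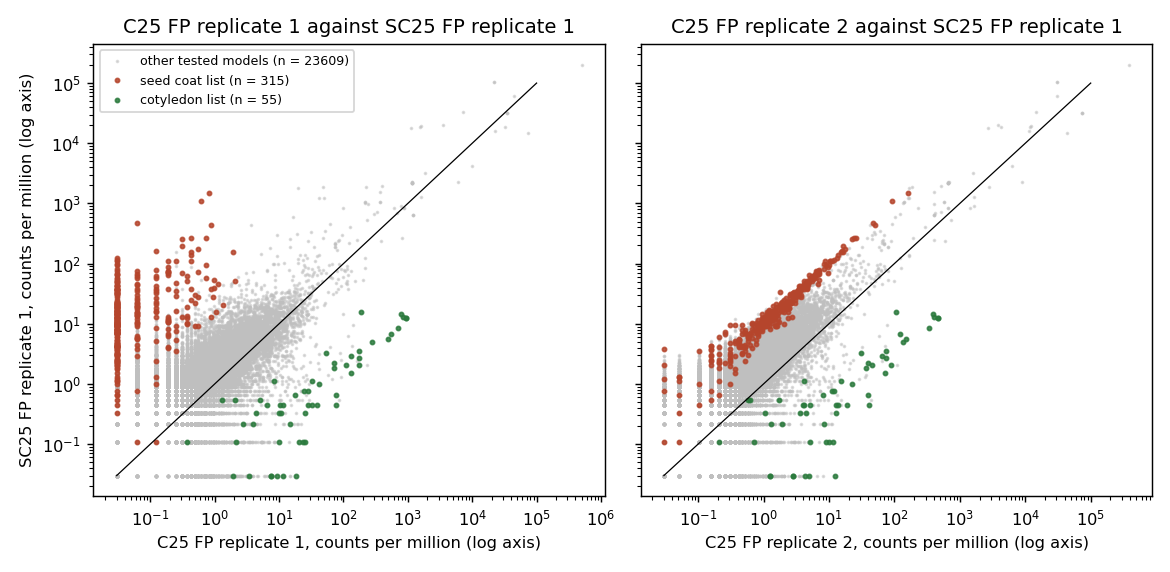
Counts of each tested model, scaled to the library total (CPM), in SC25 FP replicate 1 (vertical, log axis) against C25 FP replicate 1 (left, horizontal, log axis) or C25 FP replicate 2 (right), with counts of 0 drawn at the lower edge and the line of equal values in black. The 315 tested models of the seed coat list are scattered at low values on the left and form a narrow band on the right, at about 0.0993 of the SC25 level, while the 55 tested models of the cotyledon list lie below the line or close to it in both panels.

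**Figure D2:**
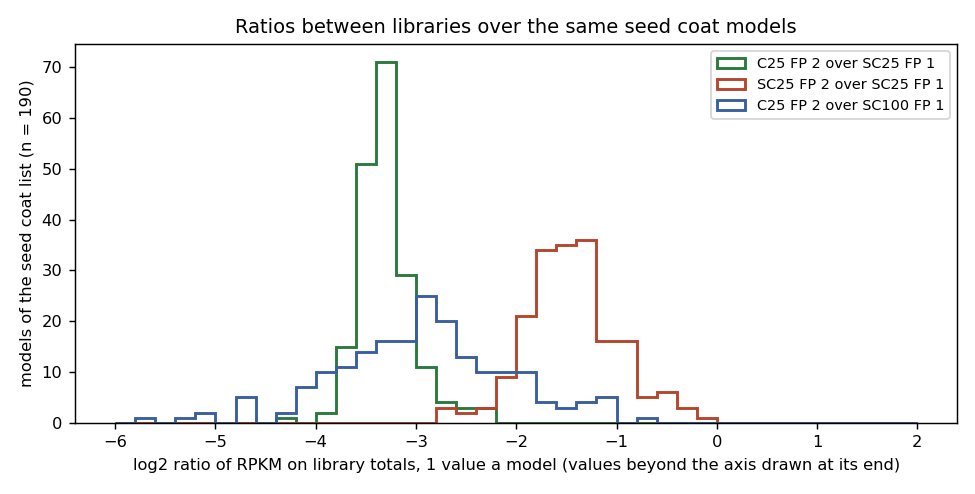
Histograms of the log2 ratio of RPKMs between FP libraries over the same 190 models of the seed coat list, with the number of models on the vertical axis. The ratios of C25 FP replicate 2 over SC25 FP replicate 1 have the smallest spread (SD 0.278), against 0.460 for SC25 FP replicate 2 over replicate 1 and 0.871 for C25 FP replicate 2 over SC100 FP replicate 1.

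Single models showed the same contrast between the C25 FP replicates. Among 612 tested models with at least 5 RPKM in C25 FP replicate 2, 39 had at least 20 times the level of replicate 1, with replicate 1 set to at least 0.1 RPKM. Of these, 35 were in the seed coat list, and all 39 were higher in both SC25 FP libraries than in C25 FP replicate 2. In CT, all 39 were higher in both SC25 libraries than in both C25 libraries, and 0 of them had a level in C25 CT replicate 2 that was 20 times that of replicate 1. In the other direction, 0 of 1003 models with at least 5 RPKM in C25 FP replicate 1 had 20 times the level of replicate 2. The largest contrast was the BURP domain model Glyma.07G176700.1, from a plant family of cell wall and seed proteins. Its levels were 0.0416 and 31.7 RPKM in C25 FP replicates 1 and 2 and 323 and 93.5 RPKM in SC25 FP replicates 1 and 2.

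The test across all 4 libraries called 454 models higher in C25 and 5 higher in SC25 at an adjusted p under 0.05 (edgeR quasi-likelihood test with Benjamini-Hochberg adjustment), which is 1.89% and 0.0209% of the 23979 tested. At an unadjusted p under 0.05 these numbers were 3234 (13.5%) and 2402 (10%). After TMM, both C25 libraries were above both SC25 libraries for 7796 models (32.5%), and the reverse held for 6413 (26.7%). On library totals without TMM the calls were 419 higher in C25 and 2774 higher in SC25, so the balance of the directions depends on the scaling. In bulk tissue, fewer cells of a type and less RNA per cell cannot be told apart.

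The number of calls also depended on C25 FP replicate 2. Without it, with the models and TMM factors of the 4-library fit, 1618 models were called higher in C25 (6.75%) and 2171 higher in SC25 (9.05%). Without replicate 1, the numbers were 684 (2.85%) and 304 (1.27%). These fits were chosen after seeing the data, and in them the lone C25 library is assumed to vary like the SC25 pair. They also estimated the spread differently from the 4-library fit, so the numbers of calls are not directly comparable. When models and factors were chosen again from the 3 libraries, either fit called 0 models in both directions. At an unadjusted p under 0.05 (edgeR) the refit without replicate 2 then gave 2603 models higher in SC25 and 2146 higher in C25, and the refit without replicate 1 gave 578 and 1365. The refit without SC25 FP replicate 1 called 579 models higher in SC25 and 392 higher in C25, and that without SC25 FP replicate 2 called 94 and 518.

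Storage proteins made the clearest difference on the cotyledon side, in both C25 FP libraries. The 19 models that the study lists as seed storage proteins were all tested. All 19 were higher in both C25 FP libraries than in both SC25 FP libraries, against 32.5% of all models. Of these, 18 were called higher in C25, against 1.89% of all models, and their log2 fold changes lay between -8.63 and -5.02. Their median levels were 37.5 and 20.9 RPKM in C25 FP replicates 1 and 2, and 0.970 and 0.333 RPKM in SC25 FP replicates 1 and 2. The exception was the conglycinin Glyma.20G146300.1 with 1.55 and 0.135 RPKM in C25 FP and no count in SC25 FP (adjusted p = 0.121, edgeR).

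The conglycinins, 7S globulins of the cupin fold, covered a wide range, and their median of 14.6 RPKM in C25 FP replicate 1 was below the 50.3 RPKM of the glycinins. Glyma.20G148300.1 had 478 and 233 RPKM in C25 FP replicates 1 and 2 and 6.35 and 1.95 RPKM in SC25 FP replicates 1 and 2, a log2 fold change of -7.51 (SE 0.92, adjusted p = 0.0149, edgeR). The lowest C25 library was far above the highest SC25 library. Glyma.20G148400.1 had nearly the same values, and the reads that such near-identical copies share leave the level of each uncertain. Of 9 conglycinin models 8 were called, with a median log2 fold change of -6.95, or -6.47 with the model without SC25 counts at its bound of 3 counts a library.

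All 4 glycinins, the 11S globulins, were called higher in C25, with a median log2 fold change of -7.06. Glyma.03G163500.1 had 103 and 51.4 RPKM in C25 FP and 1.92 and 0.333 RPKM in SC25 FP. Seed lectin, a carbohydrate-binding storage protein encoded by Glyma.02G012600.1, had 80.0 and 40.8 RPKM in C25 FP and 0.970 and 0.193 RPKM in SC25 FP. Its log2 fold change was -7.79 (SE 0.83, adjusted p = 0.0142, edgeR). For both proteins the lower C25 library, replicate 2, was still above either SC25 library.

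Protease inhibitors formed a second group with few footprints in seed coats. All 5 Kunitz trypsin inhibitors were called higher in C25, with a median log2 fold change of -7.55. Glyma.08G341000.1 had 262 and 122 RPKM in C25 FP and 2.33 and 0.774 RPKM in SC25 FP. Glyma.08G341500.1 had 238 and 116 RPKM in C25 FP and 2.89 and 1.04 RPKM in SC25 FP. The Bowman-Birk inhibitors are small cysteine-rich proteins that block trypsin and chymotrypsin, and models of this family were among the largest changes toward C25. Glyma.09G158900.1 had 73.7 and 34.0 RPKM in C25 FP, 0.324 RPKM in SC25 FP replicate 1 from 1 count, and no count in SC25 FP replicate 2. On library totals the ratio of its counts was 288, with an exact 95% interval of 51.6 to 11410. Glyma.09G158800.1 and Glyma.14G117600.1 had the same counts as each other, 123 and 55 in C25 FP and none in SC25 FP, and the level of each was at least 12.5-fold higher in C25 against a floor of 3 counts per SC25 library. Such bounds are set on library totals, as are the RPKMs.

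Most tested oil body proteins and some fatty acid enzymes were also called higher in C25. Of 19 annotated oleosins and related oil body proteins, 12 were tested and 9 were called higher in C25, against 1.89% of all models, with a median log2 fold change of -5.62. The oleosin Glyma.16G071800.1 had 451 and 140 RPKM in C25 FP replicates 1 and 2 and 5.19 and 1.28 RPKM in SC25 FP replicates 1 and 2. Its log2 fold change was -7.58 (SE 0.95, adjusted p = 0.0155, edgeR), and the groups did not overlap. Other oleosins differed by similar amounts. Glyma.04G077600.1 had 253 and 111 RPKM against 4.03 and 1.02, and Glyma.19G063400.1 had 232 and 51.8 RPKM against 2.85 and 0.988.

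Of 68 models of fatty acid synthesis and desaturation, 46 were tested and 9 were called higher in C25, against 1.89% of all models. The median log2 fold change was -1.76, or -0.74 on library totals. Both C25 libraries were above both SC25 libraries for 28 of the 46, against 32.5% of all models. The reverse held for 8, against 26.7%. Glyma.14G121400.1 encodes a stearoyl-acyl carrier protein desaturase, which places the first double bond in fatty acids. It had 46.9 and 16.9 RPKM in C25 FP and 1.78 and 0.375 RPKM in SC25 FP (log2 fold change -5.96, SE 0.78, adjusted p = 0.0167, edgeR). FAD2, a desaturase of the endoplasmic reticulum that makes linoleate from oleate, was represented by Glyma.20G111000.1 with 10.9 and 5.61 RPKM in C25 FP and 0.275 and 0.0578 RPKM in SC25 FP. Acyl carrier protein 4 (Glyma.13G214600.1) differed less, with 14.1 and 8.29 RPKM against 3.90 and 2.46 RPKM, a log2 fold change of -2.77 (SE 0.49, adjusted p = 0.0404, edgeR).

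**Figure D3:**
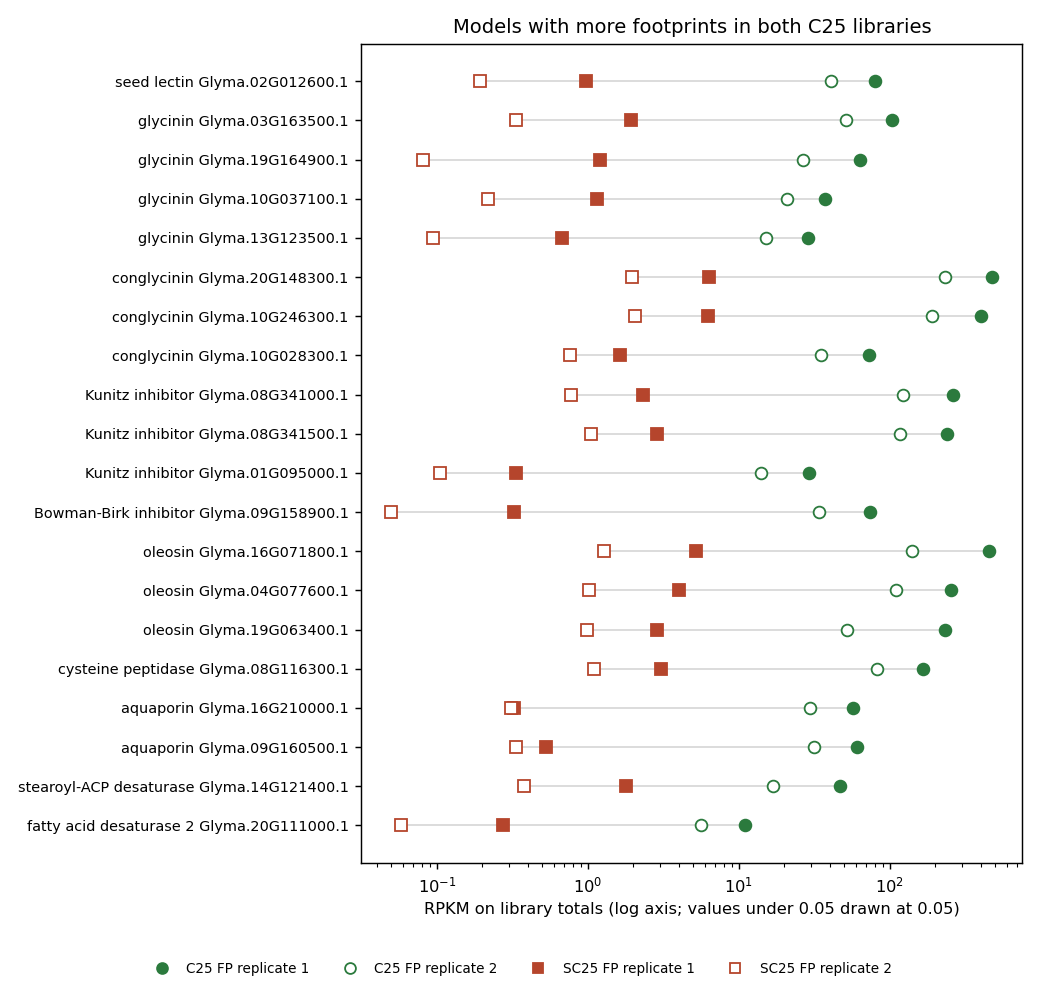
RPKM on library totals (log axis) of 20 models in the 4 FP libraries, with C25 as green circles, SC25 as red squares, replicate 1 filled and replicate 2 open. In every row both C25 libraries lie to the right of both SC25 libraries, as for the oleosin Glyma.16G071800.1 with 451 and 140 RPKM against 5.19 and 1.28 RPKM.

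Other cotyledon models with few seed coat footprints had roles in proteolysis, water transport and defence. The cysteine peptidase Glyma.08G116300.1 had 167 and 81.9 RPKM in C25 FP and 3.05 and 1.09 RPKM in SC25 FP (log2 fold change -6.95, SE 0.77, adjusted p = 0.0142, edgeR). The aquaporin Glyma.16G210000.1, a membrane channel for water, had 57.1 and 29.8 RPKM against 0.325 and 0.308 RPKM. Chitinase A (Glyma.20G164700.1), an enzyme that cuts fungal wall polymers, had 66.2 and 33.8 RPKM in C25 FP, 0.430 RPKM in SC25 FP replicate 1 and no count in SC25 FP replicate 2. Each of these models was above its SC25 levels in both C25 libraries. Of 40 tested aquaporins 7 were called higher in C25, against 1.89% of all models. For 9 both SC25 libraries were above both C25 libraries, a share below the 26.7% of all models. The 7 include the tonoplast channel Glyma.03G185900.1 with 80.8 and 28.0 RPKM against 11.9 and 5.65 RPKM.

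A cotyledon list was built by the mirror of the seed coat rule, from the C100 and SC100 CT libraries, and held 60 models. Their median level was 20.1 and 9.49 RPKM in C25 FP replicates 1 and 2, and 0.516 and 0.184 RPKM in SC25 FP replicates 1 and 2. For each model the mean SC25 FP level was set over the mean C25 FP level, and the median of this ratio was 0.0145, or 0.0239 without C25 FP replicate 1 and 0.00592 without SC25 FP replicate 1. The list shares members with the storage protein, protease inhibitor, oleosin, aquaporin and cysteine peptidase models above, so it is not a separate set. Of 55 tested models, 51 were called higher in C25, against 1.89% of all models. All 55 had both C25 libraries above both SC25 libraries, against 32.5% of all models. The median log2 fold change was -6.95, or -6.56 with the 4 models without SC25 counts at their bounds. Between the C25 FP replicates, all 55 were lower in replicate 2 on library totals, as were 15315 of the 23979 tested models. The median ratio was 0.471 over the 51 list models with at least 20 counts in both, or 0.638 after TMM. The cotyledon list thus moved the opposite way to the seed coat list between the C25 FP replicates.

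Housekeeping and plastid groups differed by smaller amounts, which depend on the scaling, as does the direction for endoplasmic reticulum folding proteins and histones. Light-harvesting and photosystem proteins had a median log2 fold change of -1.51 over 132 tested models, with 7 called higher in C25, and it was -0.42 on library totals. Photosystem II subunit W (Glyma.02G141700.1) had 14.3 and 7.07 RPKM in C25 FP and 3.28 and 1.44 RPKM in SC25 FP. Ribosomal proteins had a median of -1.24 over 531 models, and -0.20 on library totals. The 2 called higher in C25 were a smaller share than the 1.89% of all models. For 403 of them both C25 libraries were above both SC25 libraries, against 32.5% of all models, and for 17 the reverse held, against 26.7%. Proteins of folding and disulfide formation in the endoplasmic reticulum had a median of -1.02 over 30 models and histones of -0.52 over 77, with 0 called in either group at an adjusted p. At an unadjusted p under 0.05 (edgeR) 11 and 9 of them were higher in C25, against 13.5% of all models, a share that the histones did not exceed. On library totals these medians turned to 0.07 and 0.62. Late embryogenesis abundant (LEA) and related seed maturation proteins had a median of -2.81 over 28 of 65 models, or -2.74 with 1 model at its bound. It was -1.82 on library totals, and 2 models were called higher in C25. Of these, Glyma.13G363300.1 had 18.9 and 12.3 RPKM against 3.41 and 2.81 RPKM.

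The 5 models called higher in SC25 had low levels in both C25 FP libraries. Glyma.04G005400.1, annotated as proline-rich protein 2, had no count in either C25 FP library and 2.73 and 1.52 RPKM in SC25 FP (adjusted p = 0.0229, edgeR). On library totals its SC25 level was at least 15.8-fold higher against a floor of 3 counts per C25 library. Glyma.04G005400.1 was the 1 model of the seed coat list that was called. Glyma.18G249100.1, of the PRA1 family of vesicle traffic proteins, also had no C25 count. It had 1.39 and 0.925 RPKM in SC25 FP, at least 9.41-fold higher on library totals. Library totals shift ratios toward SC25, so neither value is a lower bound after TMM. The MADS-box factor Glyma.02G287700.1 had 1 count in the C25 FP libraries together and 2.31 and 1.14 RPKM in SC25 FP. On library totals its count ratio was 84.9 with an exact 95% interval of 14.4 to 3439, and after TMM the fold was 36.9. In each of these models both SC25 libraries lay above both C25 libraries.

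The other 2 calls had a few counts in both C25 libraries. Glyma.07G041400.1, annotated as JAZ6, a repressor of jasmonate responses, had 0.0699 and 0.0885 RPKM in C25 FP and 1.93 and 1.97 RPKM in SC25 FP (log2 fold change 3.63, SE 0.68, adjusted p = 0.0475, edgeR). The lipid transfer family model Glyma.07G141500.1 had 0.241 and 0.407 RPKM in C25 FP and 7.60 and 3.62 RPKM in SC25 FP (log2 fold change 2.98, SE 0.56, adjusted p = 0.0472, edgeR).

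The seed coat list itself shows how far C25 FP replicate 2 entered the test. Of its 323 models 315 were tested, and for 306 both SC25 libraries were above both C25 libraries after TMM, against 26.7% of all models. The number called was 1, and 152 had an unadjusted p under 0.05 (edgeR). The fits without 1 C25 FP library, with models and factors kept, estimated the spread differently, so only their medians are compared here. The median log2 fold change was 2.52 in the 4-library fit, and 2.51 with the 4 models without C25 counts at their bounds. Without replicate 2 the median was 7.82 as fitted and 4.87 with 187 models at their bounds, and without replicate 1 it was 1.53.

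Several proteases had footprints in both SC25 libraries and in C25 FP replicate 2, and were not called with all 4 libraries. The subtilisin-like protease Glyma.06G022600.1 had 614 and 213 RPKM in SC25 FP replicates 1 and 2, 0.328 RPKM in C25 FP replicate 1 and 65.4 RPKM in C25 FP replicate 2. Its log2 fold change was 2.31 (SE 1.73, adjusted p = 0.447, edgeR) with all 4 libraries. It was 9.37 without C25 FP replicate 2, in the fit that kept models and TMM factors. The groups did not overlap, but on a log scale the C25 libraries were farther apart than C25 replicate 2 was from SC25. In CT the same model had 0.881 and 1.69 RPKM in C25 and 535 and 655 RPKM in SC25. The aspartyl protease Glyma.02G213000.1 had 67.7 and 23.5 RPKM in SC25 FP, 7.13 RPKM in C25 FP replicate 2 and no count in C25 FP replicate 1. Against replicate 1 alone its SC25 level was at least 412-fold higher on library totals with a floor of 3 counts. The cysteine peptidase Glyma.06G275300.1, annotated as SAG12, a senescence-associated enzyme in Arabidopsis, had 195 and 73.6 RPKM in SC25 FP and 0.237 and 17.6 RPKM in C25 FP replicates 1 and 2.

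Lipid transfer proteins bind lipids outside the cell, and the GASA proteins are small gibberellin-regulated peptides. Lipid transfer protein 1 (Glyma.01G132500.1) had 588 and 175 RPKM in SC25 FP replicates 1 and 2, 1.14 RPKM in C25 FP replicate 1 and 67.0 RPKM in C25 FP replicate 2. The log2 fold change was 2.11 (SE 1.46, adjusted p = 0.408, edgeR), and 7.43 without C25 FP replicate 2, with models and factors kept. The gibberellin-regulated model Glyma.13G039300.1 had 144 and 46.4 RPKM in SC25 FP and 0.140 and 13.6 RPKM in C25 FP replicates 1 and 2. In both models C25 FP replicate 2 was closer to the SC25 libraries than to C25 FP replicate 1 on a log scale.

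Flavonoid enzymes lead to the flavonols and proanthocyanidins of seed coats. Flavanone 3-hydroxylase (Glyma.02G048400.1) had 149 and 34.5 RPKM in SC25 FP, 0.407 RPKM in C25 FP replicate 1 and 14.2 RPKM in C25 FP replicate 2. Its log2 fold change was 2.23 (SE 1.36, adjusted p = 0.349, edgeR) with all libraries, and 6.80 without replicate 2, with models and factors kept. Dihydroflavonol 4-reductase (Glyma.14G072700.1), which acts on its product, had 50.1 and 15.2 RPKM in SC25 FP, 4.91 RPKM in C25 FP replicate 2 and no count in replicate 1. An extensin-like repeat protein of the wall, Glyma.09G092700.1, had 385 and 153 RPKM in SC25 FP and 0.217 and 32.6 RPKM in C25 FP replicates 1 and 2.

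Many of these models belong to groups that the study lists for high translational efficiency, the ratio of FP to CT levels, in early cotyledons. The lists were thus chosen on C25 FP libraries and are no independent evidence of a direction. They hold 12 proteases and peptidases, 16 models of 2S albumin, lipid transfer and cysteine-rich proteins, 6 gibberellin-regulated proteins, 6 flavonoid enzymes and 2 transcription factors among primary models. For 40 of these 42, both SC25 FP libraries were above both C25 FP libraries, against 26.7% of all models. Of the 42, 0 were called (edgeR). At an unadjusted p under 0.05, 5 were higher in SC25, a share near the 10% of all models, and 2 were higher in C25. The log2 fold changes of the 40 ran from 1.87 to 2.99, with adjusted p-values from 0.163 to 0.447. Their counts were 0 to 33 in C25 FP replicate 1, with 14 models at 0, and 18 to 3069 in replicate 2. The ratio of C25 FP replicate 2 to SC25 FP replicate 1 lay between 0.0796 and 0.137, with a median of 0.0980. The 2 transcription regulators, Glyma.11G070200.1 and Glyma.11G070300.1, carry the NmrA-like annotation and had 3.47 and 2.20 RPKM in C25 FP replicate 2 and no count in replicate 1. The 2 models that ran the other way, named after their values were seen, were of the lipid transfer family. Glyma.05G057800.1 had 1.34 and 0.666 RPKM in C25 FP and Glyma.06G067000.1 had 0.425 and 0.154, and neither had a count in SC25 FP.

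**Figure D4:**
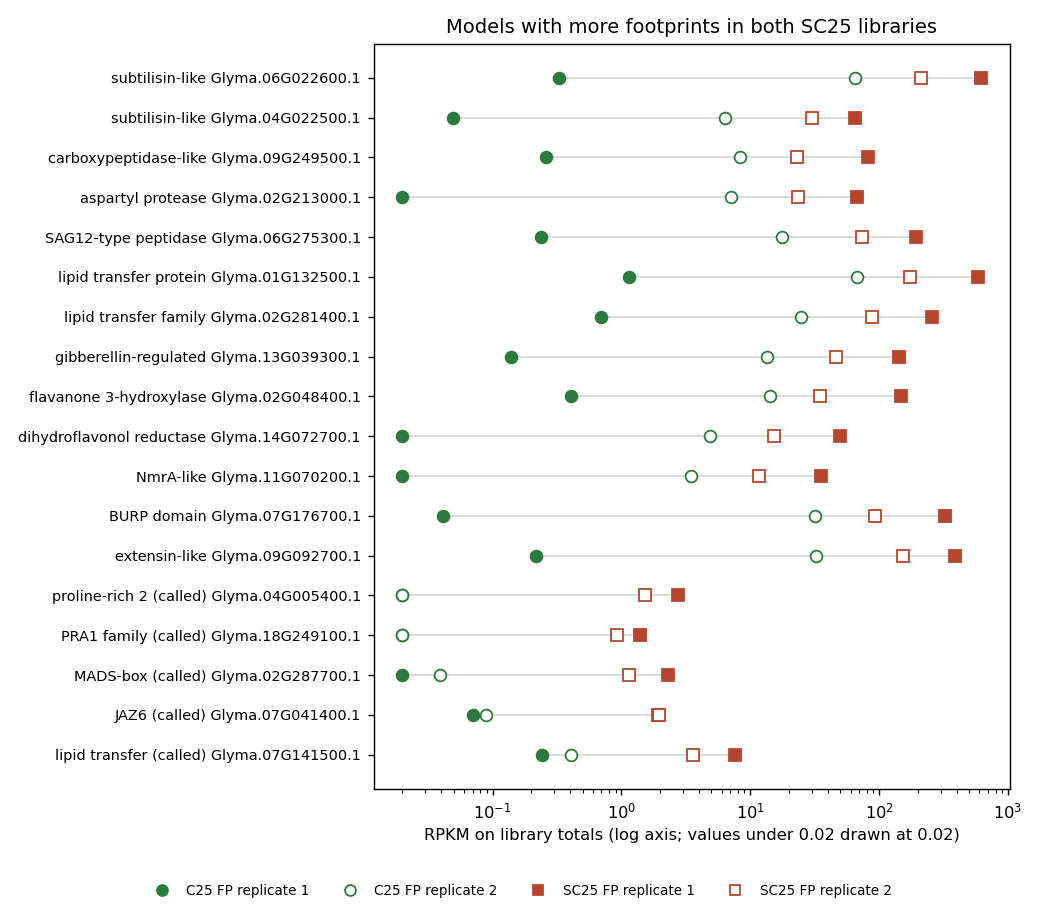
RPKM on library totals (log axis) of 18 models in the 4 FP libraries, with symbols as for the models higher in C25. The upper 13 rows have C25 FP replicate 2 (open circle) between replicate 1 and SC25, as for Glyma.06G022600.1 at 65.4 RPKM between 0.328 and 213 RPKM, and the lower 5 rows, the models called higher in SC25, have both C25 libraries at low levels.

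Families annotated for seed coat roles had medians above 0, with few or no calls in the 4-library fit. In that fit 0.0209% of all models were called higher in SC25 and 1.89% higher in C25. Each median without C25 FP replicate 2 below comes from the fit that kept models and factors, with models lacking a count at their bounds. In that fit the median of all models was 0.05. MADS-box factors, some of which set ovule and seed coat identity in Arabidopsis, had a median log2 fold change of 2.63 over 28 tested models, or 2.58 with 1 model at its bound. Of these 1 was called, and the median without C25 FP replicate 2 was 2.71 with 22 models at their bounds. Flavonoid pathway enzymes had a median of 2.45 over 44 models, or 2.36 at bounds, with 0 called higher in SC25. Without replicate 2 their median was 3.79. The 2 flavonoid models called higher in C25 were the chalcone isomerase family members Glyma.13G262500.1 and Glyma.15G242900.1, the first with 1.43 and 0.713 RPKM against 0.0581 and 0.147 RPKM.

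In the wall and surface groups the medians were above 0, and the few calls of the 4-library fit were higher in C25. Over all models 1.89% were called higher in C25 and 0.0209% higher in SC25. The phenylpropanoid, expansin and cutin groups did not exceed the C25 share. Phenylpropanoid and lignin enzymes had a median of 1.55 over 27 models, with 0 called in either direction, and 1.97 without C25 FP replicate 2. Class III peroxidases, which oxidize phenolics in the wall, had a median of 1.58 over 32 models. Of these 0 were called higher in SC25 and 1 higher in C25, and without replicate 2 the median was 1.34. BURP domain proteins had 1.88 over 11 models, with 0 and 1 called, and a median of 1.30 without replicate 2. Expansins and xyloglucan enzymes had 0.97 over 69 models, with 0 and 1 called, and a median of 1.49 without replicate 2. Cellulose synthases and fasciclin-like proteins had 0.98 over 66 models, or 0.93 at bounds, with 0 and 4 called. Their median was 1.14 without replicate 2. Cutin, wax and very-long-chain lipid enzymes had 1.16 over 69 models, with 0 and 1 called, and a median of 1.10 without replicate 2. In all 6 groups the models with both SC25 libraries above both C25 libraries outnumbered those with the reverse. The numbers were 36 to 9 among expansins and xyloglucan enzymes and 20 to 4 among peroxidases. Over all models these shares were 26.7% and 32.5%.

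Transport and protease families held members in both directions. In the 4-library fit 1.89% of all models were called higher in C25 and 0.0209% higher in SC25. The subtilisin-like proteases did not exceed the C25 share. SWEET and sucrose transporters, which move sugar toward the embryo, had a median of 1.93 over 22 models, or 1.78 at bounds. Of these 0 were called higher in SC25, and the median without replicate 2 was 1.40. The sucrose-proton symporter Glyma.02G075100.1 went the other way and was called higher in C25, with 5.92 and 2.58 RPKM against 0.505 and 0.128 RPKM. UmamiT amino acid exporters had 1.31 over 36 models, with 0 called higher in SC25 and 1 higher in C25. Sucrose cleavage enzymes had 0.42 over 14 models, with 0 called in either direction. Subtilisin-like proteases had 0.79 over 56 models, serine carboxypeptidase-like proteins 1.46 over 61, or 1.23 at bounds, and cysteine proteases 1.33 over 64. These 3 protease families had 0 members called higher in SC25 with all libraries, 19, 22 and 22 without C25 FP replicate 2, and 1, 4 and 6 called higher in C25. Lipid transfer and 2S albumin family models had 1.43 over 55, or 0.69 with 7 models at their bounds, with 1 called higher in SC25 and 7 higher in C25. GASA proteins had 2.06 over 27, or 2.48 without replicate 2, with 0 called higher in SC25 and 4 higher in C25. Of the 4, Glyma.08G291900.1 had 14.6 and 7.63 RPKM in C25 FP and 0.161 and 0.204 RPKM in SC25 FP.

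A few members had no footprint in either SC25 library. The peroxidase Glyma.14G053700.1 had 5.45 and 2.56 RPKM in C25 FP and was at least 11.5-fold higher there against a floor of 3 counts per SC25 library. The serine carboxypeptidase-like Glyma.03G125200.1 had 1.79 and 0.540 RPKM, at least 5.39-fold higher, and the UmamiT exporter Glyma.03G172900.1 had 1.86 and 0.749 RPKM, at least 4.56-fold higher. Each of the 3 was called higher in C25 (adjusted p 0.0146, 0.0325 and 0.0256, edgeR) and was also without a count in both SC25 CT libraries.

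**Figure D5:**
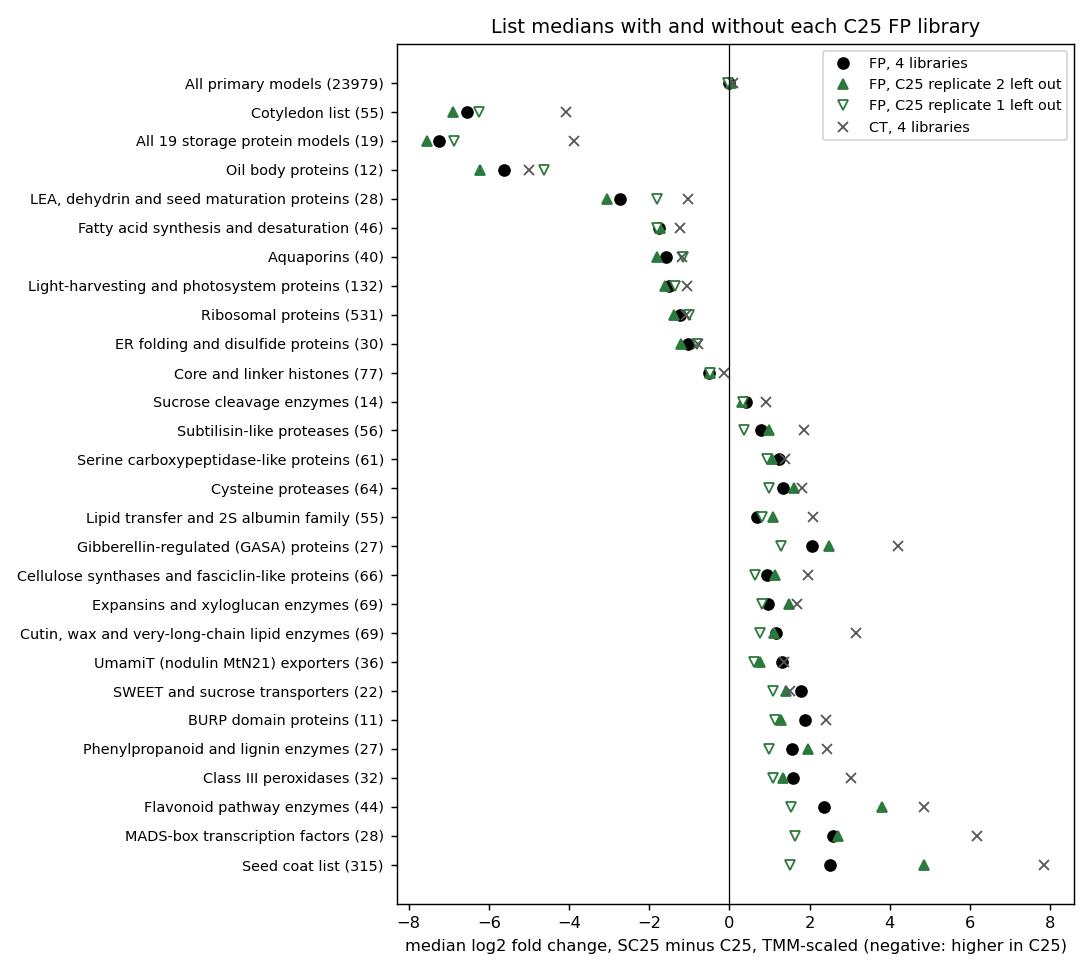
Median log2 fold change of SC25 over C25 (horizontal, TMM-scaled) for each list, with the number of models tested in FP in brackets. FP medians are given for the 4 libraries and without each C25 library, with models lacking a count in 1 tissue set at their bound of 3 counts a library, and crosses are CT medians as fitted. The storage list lies between -7.53 and -6.87 and the oil body list between -6.21 and -4.63 in the FP fits, and the seed coat list moves from 2.51 to 4.87 when C25 FP replicate 2 is left out.

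Control RNA of the same tissues gave the transcript side of the comparison. In CT, 2374 of 35114 tested models were called higher in SC25 (6.76%) and 976 higher in C25 (2.78%, edgeR with Benjamini-Hochberg adjustment). Without 1 C25 CT library, 569 to 668 models were called higher in SC25 and 201 to 223 higher in C25, and without 1 SC25 CT library, 7631 to 11753 and 6118 to 12110. Of the 454 models called higher in C25 in FP, 347 were called the same way in CT, which is 76.4% of the FP calls and 38.2% of the 909 CT calls among models tested in both. The sign was the same for 453 of the 454. Of the seed coat list 309 of 321 tested models were called higher in SC25 in CT, with a median log2 fold change of 7.84 as fitted. Pearson's r between the FP and CT log2 fold changes of 23939 models was 0.745 with all libraries. It was 0.807 when C25 FP replicate 2 was left out and 0.637 when replicate 1 was. These are correlations across models, which are not independent replicates.

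The cotyledon list had a smaller difference in CT, with 30 of 58 tested models called higher in C25 and a median log2 fold change of -4.08. The SC25 CT replicates differed, with list medians of 5.79 and 0.632 RPKM in replicates 1 and 2, beside 45.9 and 62.5 RPKM in the C25 CT replicates. Storage proteins followed this split, since Glyma.20G148300.1 had 915 and 1118 RPKM in C25 CT and 69.3 and 2.81 RPKM in SC25 CT. In CT 7 of the 19 storage protein models were called higher in C25, against 2.78% of all models. Their median log2 fold change was -3.89 with all 4 libraries and -7.38 without SC25 CT replicate 1. For the cotyledon list these medians were -4.08 and -6.97. Without SC25 CT replicate 2 the storage median was -2.95.

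Whether the tissue difference was the same in FP as in CT was tested as an interaction over the 8 libraries. It called 0 of 36258 models (0% in either direction) in edgeR's quasi-likelihood test, with 403 models toward SC25 (1.11%) and 1371 toward C25 (3.78%) at an unadjusted p under 0.05, and DESeq2 called 0 and 10. Without C25 replicate 1, 306 models were called toward C25 and 1 toward SC25, without C25 replicate 2 the numbers were 2 and 0, and without SC25 replicate 2 they were 648 and 355. The 19 storage protein models had interaction log2 values from -5.86 to -1.36, all toward C25 in FP, with 13 at an unadjusted p under 0.05 and the lowest adjusted p at 0.540. The seed coat list had a median of -4.99, and 265 of its 323 models were toward C25 in FP at an unadjusted p under 0.05. Without the C25 replicate 2 libraries the median of the seed coat list was 0.29, with 5 models toward C25 at an unadjusted p under 0.05. Without the SC25 replicate 1 libraries the median of the storage proteins was 0.08, with 0 of the 19 at an unadjusted p under 0.05 in either direction and 0 called (edgeR). The interaction values of both lists were thus not seen without these libraries.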

How the data were processed

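Footprint and control RNA libraries of soybean cotyledons and seed coats were analysed from the deposited count of reads per cDNA model. The authors trimmed reads, aligned them with Bowtie version 1 without mismatches and with up to 25 alignments per read, removed ribosomal RNA models and counted hits per model, without scaling. A read that matched several models was counted at each, so near-identical copies share counts. RPKM was computed from the deposited counts, the cDNA lengths and the library totals.

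Primary models whose counts over the libraries of a fit summed to 10 or more were tested by edgeR 4.0.16 (quasi-likelihood, two-sided, TMM factors, totals over all models, R 4.3.3) with Benjamini-Hochberg adjustment, and called at an adjusted p under 0.05. The fit was tested on simulated data for the FP comparison (23689 models). It called 39 of 100 models changed by 2 on the log2 scale and 100 of 100 changed by 4, with 6 false calls. The changed models were abundant ones, all models had the same set spread, and no replicate was made unlike its pair. These numbers therefore do not describe models with few counts or unlike replicates. Alternatives were DESeq2 1.42.0, limma 3.58.1 (voom), library totals, other filters, a replicate block and libraries left out. The voom fits and those that kept models and factors were chosen after seeing the data. Medians at bounds set a tissue without counts at 3 counts a library.

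Members and lists were chosen with earlier results of these data known. Annotation lists came from keywords in the model descriptions. Named models were, by rule, the 12 called models with the largest change and at least 10 RPKM in each direction, 3 called members per list and direction, examples of the study's lists, and the 10 largest and 10 smallest ratios between C25 FP replicates. All 5 models called higher in SC25 were named. Of the 20 libraries, 16 were read, and the others were not used here. Sequences were not used here. Depth per library is given with the results, and it limits values near 3 counts.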

Additional observations from a re-analysis of the deposited data

How the results depend on the processing

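All counts are of models called at an adjusted p under 0.05, and no named model reversed its direction while called under any alternative. For FP models higher in SC25 (5), the number was 2774 on library totals, 110 with DESeq2, 20 with limma voom, 1938 without a count filter, 172 with at least 10 counts in every library, 17 with splice variants, and 0 to 579 with 1 library left out. For FP models higher in C25 (454), it was 1739 without a filter, 264 with at least 10 counts in every library and 0 to 518 with 1 library left out. With models and factors kept, leaving out C25 FP replicate 2 gave 2171 and 1618, and leaving out replicate 1 gave 304 and 684. For CT models higher in SC25 (2374), it was 3687 with DESeq2, 4335 without a filter, 415 with at least 10 counts in every library, 569 to 11753 with 1 library left out, and 622 and 646 without C25 CT replicates 2 and 1 with factors kept. For CT models higher in C25 (976), it was 1710, 327, 201 to 12110, and 203 and 204, in the same order without DESeq2. For the interaction toward SC25 (0), it was 2 on library totals, 12 without a filter and 0 to 355 with 1 library left out. For the interaction toward C25 (0), it was 47 on library totals, 10 with DESeq2, 446 without a filter, 0 to 648 with 1 library left out, and 2 and 296 without C25 replicates 2 and 1 with factors kept. The cause was not tested. The median level of the seed coat list in C25 FP replicate 2 over SC25 FP (0.138) was 0.346 after TMM scaling and 0.0975 to 0.243 with 1 SC25 library left out. The median level of the cotyledon list in SC25 FP over C25 FP (0.0145) was 0.0279 with a list fold of 10, and 0.00592 to 0.0239 with 1 library left out. With 1 library of a tissue left, that library is assumed to vary like the other group. Among the 127 named models, every call was lost in the refit without C25 FP replicate 1 and in that without replicate 2. Neither of these refits called any model.

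With the replicate number as a block, 647 models were called higher in SC25 and 1075 higher in C25 in FP, and 17 and 420 in the interaction. Same-numbered FP libraries did not deviate together (correlation -0.0284, and -0.0155 in CT), so the numbers are not taken as pairs.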

Other observations

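On library totals 15315 of the 23979 tested models had a higher level in C25 FP replicate 1 than in replicate 2. Of the 10 models with the largest such ratio at 5 RPKM or more, 8 had no annotation. Glyma.05G081200.1 had 27076 and 3636 RPKM in C25 FP replicates 1 and 2 and 15676 and 71161 RPKM in SC25 FP replicates 1 and 2, with a log2 fold change of 1.09 (SE 1.65, adjusted p = 0.721, edgeR), so the groups overlapped. Glyma.06G225300.1 had 83.6 and 11.1 RPKM in C25 FP and 25.7 and 10.4 RPKM in SC25 FP. The thaumatin family model Glyma.11G140800.1, of a family of defence proteins, had 11.8 and 2.08 RPKM in C25 FP and 1.71 and 0.822 RPKM in SC25 FP, with a log2 fold change of -3.35 (SE 0.76, adjusted p = 0.0773, edgeR).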
